A study of Homo sapiens with 20 samples.

Results

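Of 372133 accessible sites found in SW872 liposarcoma cells, 15814 had an ATAC-seq peak in the lists of 6 constructs and none in the list of TAZ4SA, a hyperactive form of TAZ. These sites were chosen by the presence and absence of called peaks. Overlapping peaks (1 bp or more) of all 7 deposited lists were merged into sites, each site was given the lists with a peak in it, and the sites with a peak of EV, CAMTA1, TAZ-CAMTA1, YAP5SA, TFE3 and YAP-TFE3 and without a peak of TAZ4SA were kept. They made up 4.25% of all sites. A further 60372 sites had a peak in all 7 lists, and both sets together are called 6-list sites below.

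SW872 is an established human cell line, and all 20 libraries came from cells stably transduced with a vector, 50000 cells per library. EV cells carried the empty vector. TAZ4SA and YAP5SA are full-length TAZ and YAP in which serines that the Hippo pathway kinases phosphorylate were replaced by alanine, CAMTA1 and TFE3 are the full-length C-terminal fusion partners, and TAZ-CAMTA1 and YAP-TFE3 are the fusions. The titles of the YAP-TFE3 libraries name YAP5SA as the YAP part. TFE3 had 2 libraries and every other group 3, and a title calls the third EV library a redo. No untransduced cells were among the samples, so that all groups share the transduction, and every protein was expressed from a construct on top of the cell's own TAZ and YAP.

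ATAC-seq uses a transposase that inserts sequencing adapters where DNA is not wrapped tightly, so that a peak marks an open stretch such as a promoter, an enhancer or an insulator. TAZ and YAP do not bind DNA themselves. They are coactivators that are held in the cytoplasm when the Hippo kinases phosphorylate them and that otherwise act on chromatin mainly through TEAD transcription factors, often at distal enhancers. CAMTA1 is a DNA-binding transcription activator, and TFE3 is a basic helix-loop-helix leucine zipper factor known for lysosomal and metabolic genes.

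Each construct had a single deposited list of peaks, which held between 152702 peaks (TAZ4SA) and 236893 peaks (TAZ-CAMTA1). The lists carry no values per library, so the spread between libraries could not be given for any value and no test was run. The read depth behind each list is unknown. The absence of a peak therefore means that no peak was called, not that the DNA was closed. Intervals in brackets are 95% intervals that cover counting error over sites only. In a bulk assay, a site open in fewer cells and a site less open in each cell cannot be told apart.

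Absence from the TAZ4SA list alone was the most frequent way for a site to be in every list but 1. The 15814 sites were 3.49 times as many as the 4526 sites that lacked EV alone, the next class. Sites lacking TFE3 alone numbered 1960 and those lacking YAP5SA alone 1608. The remaining classes were small, with 260 sites lacking YAP-TFE3 alone, 242 lacking CAMTA1 alone and 195 lacking TAZ-CAMTA1 alone. Of all sites with a peak in the 6 lists of the rule, 20.8% (Wilson 20.5 to 21.0%) had no TAZ4SA peak. The same share was 6.97% for EV and 2.59% for YAP5SA, each among the sites held by its own 6 other lists. The TAZ4SA list was the shortest. After the other lists were shortened to its length (152702 peaks, those with the highest summit −log10 p), 10250 sites lacked TAZ4SA alone, 2.97 times the next class. Their share of the 6-list sites was then 15.4%. The sites lacking YAP5SA alone then numbered 2672 and those lacking EV alone 3454. Lists of equal length can still differ in read depth, and its part in these counts was not tested.

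**Figure D1:**
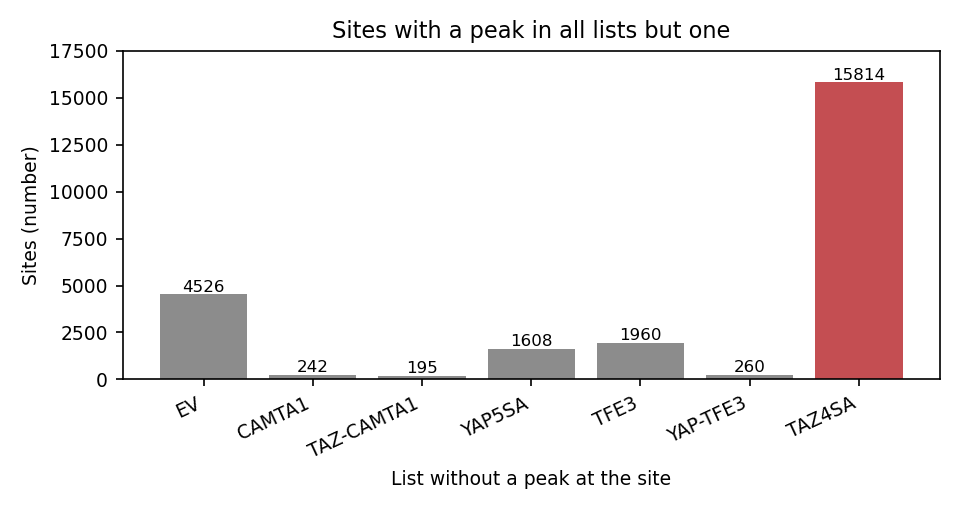
Number of sites (vertical axis) with a peak in every list except the one named on the horizontal axis, from the 7 lists as deposited. The bar for TAZ4SA reaches 15814 sites and the next, for EV, 4526.

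The sites without a TAZ4SA peak were weaker in all of the 6 lists than the sites of all 7 lists. The strength of a site in a list was taken as the largest area under the curve of the peak caller's statistic among the peaks of that list in the site, in the authors' unit, for which 20 was the lowest value called. In the EV list the median area was 112 in the members (interquartile range 56.9 to 212) and 671 in the sites of all 7 lists. The median was 315 in CAMTA1 (167 to 577), 528 in TAZ-CAMTA1 (296 to 918) and 427 in YAP-TFE3 (226 to 765). It was 145 in YAP5SA (72.1 to 280) and 150 in TFE3 (76.2 to 280). The median area of the sites of all 7 lists was 8.26 times that of the members in YAP5SA, 6.01 times in EV, 5.67 times in CAMTA1, 5.65 times in TFE3, 4.86 times in YAP-TFE3 and 3.84 times in TAZ-CAMTA1. YAP5SA thus had the largest gap of the 6 lists and TAZ-CAMTA1 the smallest. The areas are not scaled between lists, so lists are compared below by rank within a list. Areas of single sites are given as the deposited values, and the order of areas between lists is not read.

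The members lay near the middle of the TFE3, EV and YAP5SA lists and above it in the other 3. A rank was computed as the percentile of a site's largest area among all peaks of the same list, 100 being the strongest peak. The median rank of the members was 72.2 in TAZ-CAMTA1, 68.5 in YAP-TFE3, 65.4 in CAMTA1, 55.5 in YAP5SA, 52.0 in EV and 51.0 in TFE3, where 50 is the middle of the list. In the sites of all 7 lists the medians lay between 79.3 in TFE3 and 86.7 in TAZ-CAMTA1. All 6 ranks reached 50 or more in 4191 members (26.5%) and 75 or more in 303 (1.92%). They reached 90 or more in 0 members, against 13885 of the sites of all 7 lists (23%).

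When the 6-list sites were cut into 10 equal strength classes by their mean rank over the 6 lists, the share without a TAZ4SA peak fell at every step. It was 64.2% (63.1 to 65.3%) in class 1, the weakest, 49.8% in class 2, 38.7% in class 3 and 27.5% in class 4. It was 16.5% in class 5, 7.73% in class 6, 2.72% in class 7 and 0.394% in class 8. Class 9 held 2 such sites and class 10 held 0 of 7619, which allows a share of up to 0.0504% (upper Wilson limit). In the sites of all 7 lists the median TAZ4SA area rose over the same classes, from 65.8 to 4825. A weak site was thus often without a TAZ4SA peak, and a strong one hardly ever.

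The members were also narrow. Their merged width had a median of 546 bp (interquartile range 344 to 805 bp; range 100 to 6784 bp), against 1226 bp (757 to 1882 bp) for the sites of all 7 lists. Only 120 members (0.759%) were 2 kb or wider, compared with 21.8% of the sites of all 7 lists. The other classes lacking 1 list were narrow as well, with median widths from 388.5 bp (lacking CAMTA1) to 564 bp (lacking TAZ-CAMTA1). The median was 483 bp in sites lacking EV alone and 454 bp in those lacking YAP5SA alone. Narrowness was thus not particular to the absence of TAZ4SA. Among 6-list sites under 250 bp, 59.6% (58.1 to 61.0%) had no TAZ4SA peak. The share was 46.1% from 250 to below 500 bp, 28.4% from 500 to below 1000 bp, 8.05% from 1000 to below 2000 bp and 0.904% from 2 kb upwards. Strength and width go together, and the shares that the strength classes alone would give in these width classes were 53.2, 44.3, 28.9, 9.15 and 1.37%. The gradient by width was therefore close to the one already given by strength, and somewhat steeper at both ends.

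**Figure D2:**
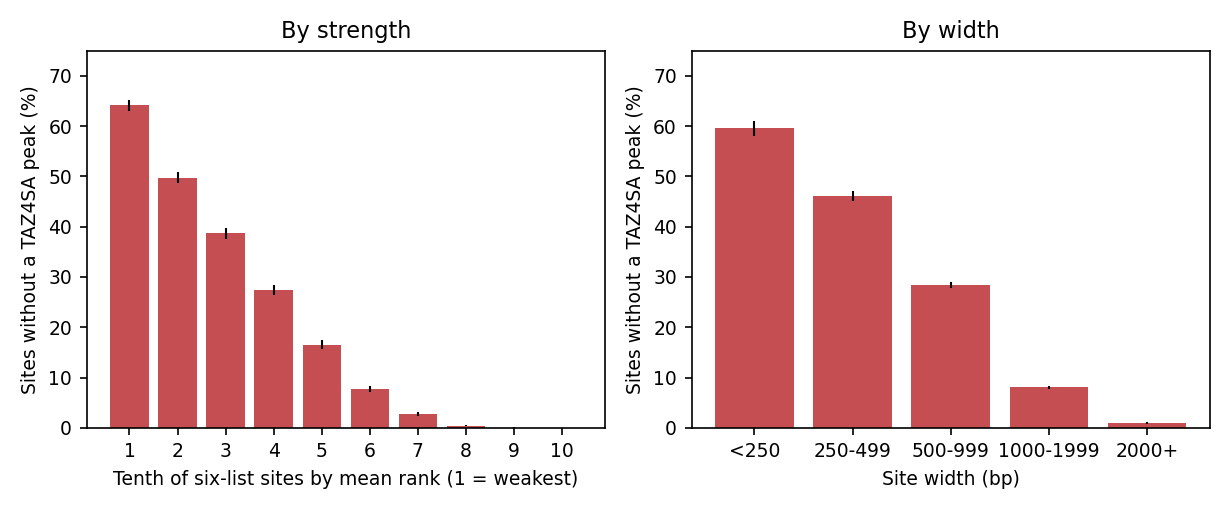
Share of 6-list sites without a TAZ4SA peak (vertical axes, %) by strength class, 10 equal classes of mean rank over the 6 lists (left) and by site width in bp (right), with Wilson 95% intervals as black lines. The share runs from 64.2% in the weakest class to 0 in the strongest, and from 59.6% under 250 bp to 0.904% from 2 kb.

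Within a member, the lists covered unequal stretches. The median number of bases under peaks was 438 in TAZ-CAMTA1, 362 in YAP-TFE3 and 333 in CAMTA1, but 231 in TFE3, 208 in YAP5SA and 191 in EV. More than 1 peak of the same list lay in the site for 12.8% (TAZ-CAMTA1) to 23.8% (CAMTA1 and YAP5SA) of members. The summits of the strongest peaks of the 6 lists nevertheless lay close together, with a median range from the leftmost to the rightmost of 84 bp, and within 100 bp in 8660 members (54.8%). In the sites of all 7 lists the median range was 88 bp and the share within 100 bp 52.5%. Among sites under 1000 bp, the ranges were 77 bp in members and 75 bp in the sites of all 7 lists. The 6 lists thus marked the same position in most members about as often as in sites where TAZ4SA also had a peak.

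Single members were first taken by the largest smallest-of-6 area, a rule on the unscaled deposited values. The first lay at chr7:99834507-99836182 (hg19), 1676 bp wide. Its areas were 2369 in YAP5SA, 2614 in EV, 1941 in TFE3, 3866 in CAMTA1, 5136 in TAZ-CAMTA1 and 4897 in YAP-TFE3, and its ranks lay between 88.1 in TFE3 and 93.5 in TAZ-CAMTA1. All 6 ranks were thus high here, while the nearest TAZ4SA peak was 2049 bp away.

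The second strongest member lay at chr22:27713160-27714979, with areas of 1873 in YAP5SA, 1857 in EV, 2070 in TFE3, 5573 in CAMTA1, 5982 in TAZ-CAMTA1 and 3065 in YAP-TFE3. It was the most isolated of the 10, with no TAZ4SA peak within 54123 bp. The third, at chr14:104643455-104645865, had areas of 1520 in YAP5SA, 2389 in EV, 2100 in TFE3, 2393 in CAMTA1, 5267 in TAZ-CAMTA1 and 3782 in YAP-TFE3. Its lowest rank was 87.6, in YAP5SA, and the others lay between 88.3 in CAMTA1 and 93.7 in TAZ-CAMTA1.

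The fourth, at chr18:77511986-77513185, had areas of 2886 in YAP5SA, 1497 in EV, 2327 in TFE3, 3832 in CAMTA1, 4528 in TAZ-CAMTA1 and 4908 in YAP-TFE3. The fifth, at chr20:48196258-48197937, was the one of these 5 with its lowest rank in YAP-TFE3, at 83.9, where the area was 1538. Its other areas were 1492 in EV, 1691 in TFE3, 1789 in YAP5SA, 2907 in CAMTA1 and 4072 in TAZ-CAMTA1. The remaining 5 lay on chromosomes 19 (2 sites), 17, 8 and 20, with smallest areas of 1453, 1347, 1293, 1257 and 1257. Sites picked in this way have a high area in every list, YAP5SA included, so their YAP5SA values say nothing of how YAP5SA compares with the other lists.

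The widest member, at chr19:812095-818878, spanned 6784 bp and had areas of 2543 in YAP5SA, 1179 in EV, 3855 in TFE3, 8062 in CAMTA1, 13500 in TAZ-CAMTA1 and 11690 in YAP-TFE3. It was the only one of the 5 widest in which the CAMTA1 rank (96.8) and both fusion ranks (98.9 and 97.9) all exceeded 96. The second widest, at chr17:74266838-74271220, had its lowest rank in YAP5SA, at 78.6, where the other ranks lay between 84.2 in EV and 96.8 in YAP-TFE3. Its areas were 597 in YAP5SA, 961 in EV, 4404 in TFE3, 5878 in CAMTA1, 6476 in TAZ-CAMTA1 and 9349 in YAP-TFE3. YAP5SA covered 1317 bases of it and the other lists between 2288 and 4352. The other 3 were 3871 to 4293 bp wide and lay on chromosomes 11, 15 and 5.

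Sites close to the edge of the rule were described from both sides. Among the sites of all 7 lists, the 3019 in the lowest 5% of TAZ4SA area had TAZ4SA areas of up to 33.8 with a median of 26.4. Their median areas were 210 in YAP5SA, 155 in EV, 203 in TFE3, 438 in CAMTA1, 676 in TAZ-CAMTA1 and 584 in YAP-TFE3, all somewhat above the medians of the members. The median width of these sites was 674 bp. On the other side of the rule, 118 members (0.746%) had a TAZ4SA peak within 100 bp of their edge, 3 of them touching it without sharing a base. Their median areas were 151 in YAP5SA, 99.5 in EV, 106 in TFE3, 220 in CAMTA1, 379 in TAZ-CAMTA1 and 301 in YAP-TFE3. These lay below the medians of all members in every list except YAP5SA. The 5 nearest lay at chr14:100219526-100220001, chr2:238380151-238380822, chr9:33749386-33750039, chr19:49728934-49729555 and chr17:42835503-42837026, at distances of 0, 0, 0, 1 and 3 bp.

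Most members were nevertheless well away from a TAZ4SA peak. The median distance was 3624 bp (interquartile range 1031 to 10566 bp). A TAZ4SA peak lay within 500 bp of 2340 members (14.8%), within 1000 bp of 3902 (24.7%) and within 10000 bp of 11655 (73.7%), and 141 members had none within 100000 bp. The distance to the missing list was similar in the sites lacking EV alone (median 3818 bp) and shorter in those lacking YAP5SA alone (2460 bp). When cores, the stretches covered by all 6 lists, were counted in place of merged sites, 35165 cores had no TAZ4SA base. Their median distance to a TAZ4SA peak was 513 bp. A site with a TAZ4SA peak at 1 place can hold other cores without one, and 1 member can hold several cores. What part each had in these values was not tested. These cores had a median width of 99 bp, against 297 bp for the 79807 with a TAZ4SA base.

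The YAP5SA list was examined next, since YAP and TAZ are paralogous coactivators and both mutants lack serines on which the Hippo kinases act. In the members the YAP5SA rank lay below the mean rank of the other 5 lists by a median of -4.35 points (-4.67 to -4.00), and it lay below that mean in 9600 of them (60.7%). In the sites of all 7 lists the median was 0.43 points above, and 41.2% lay below. On this measure YAP5SA did not stand apart from EV and TFE3, since EV lay at -7.46 points in the members and -2.13 in the sites of all 7 lists, and TFE3 at -8.74 and -3.59. YAP5SA was the lowest of the 6 ranks in 4456 members (28.2%, Wilson 27.5 to 28.9%), compared with 17.7% of all 6-list sites and 15% of the sites of all 7 lists. EV and TFE3 were the lowest still more often in the members (31.2 and 30.3%), but they were so in the sites of all 7 lists as well (34.8 and 43.8%). CAMTA1 was the lowest in 5.47% of members and in 2.24% of the sites of all 7 lists, and YAP-TFE3 in 3.90 and 2.51%. At the other end, YAP5SA was the highest of the 6 in 9.48% of members and in 23.5% of the sites of all 7 lists, whereas TAZ-CAMTA1 was the highest in 49.3 and 31.1%.

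The lists differ in length, and the percentiles depend on it. With every list at the length of the TAZ4SA list, the YAP5SA rank lay below the mean of the other 5 by a median of -10.4 points in the members and of -0.727 in the sites of all 7 lists. YAP5SA was then the lowest of the 6 in 44.3% of members and in 34.9% of the sites of all 7 lists.

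Members and sites of all 7 lists differ in strength, so the YAP5SA rank was also compared between them at similar strength. The 6-list sites were cut into 10 equal strata by their mean rank in the 5 lists other than TAZ4SA and YAP5SA, and the median YAP5SA rank of members was set beside that of the sites of all 7 lists in the same stratum. In stratum 1, the weakest, it was 43.7 in the 4554 members and 57.8 in the 3065 others. In stratum 2 it was 51.7 and 64.2, in stratum 3 it was 58.1 and 68.6, and in stratum 4 it was 63.5 and 72.3. Stratum 5 gave 68.4 and 77.2, stratum 6 gave 72.7 and 81.6, and stratum 7 gave 76.6 and 85.9. Strata 8 and 9 held only 54 and 7 members, with medians of 80.1 against 90.3 and of 85.4 against 94.5. The members were thus lower in YAP5SA in each of the 9 strata that held any, by between 8.74 and 14.1 points.

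**Figure D3:**
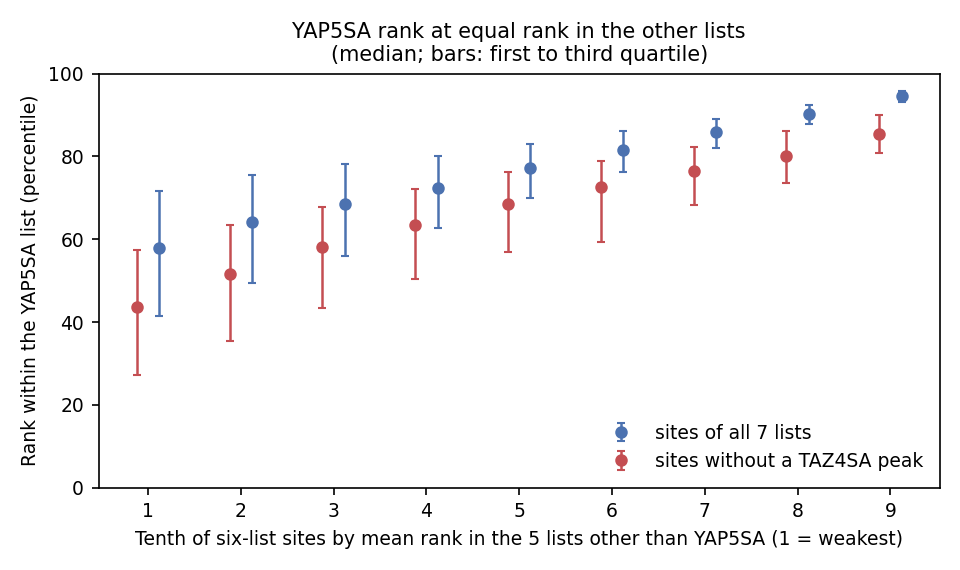
Rank within the YAP5SA list (vertical axis, percentile) of members (red) and of sites of all 7 lists (blue) in 10 equal strata of 6-list sites by mean rank in the 5 other lists (horizontal axis), as medians with bars over the interquartile range. The red medians lie 8.74 to 14.1 points below the blue ones in strata 1 to 9, and the quartile ranges overlap in strata 1 to 7 but not in 8 and 9.

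Averaged over the strata by the number of members, the YAP5SA difference was -11.5 points. The same comparison for each of the other lists, in strata of its own 5 companions, gave -3.17 points for CAMTA1, -2.98 for EV, -1.31 for YAP-TFE3, -0.03 for TFE3 and 2.08 for TAZ-CAMTA1. On this measure YAP5SA was the list in which the members were lowest for their strength, below CAMTA1, the next. The strata for each other list held the YAP5SA rank among the companions, while those for YAP5SA did not. What this adds to the contrast was not tested. Computed on each autosome by itself, the YAP5SA difference was below 0 on 22 of 22, from -18.4 on chromosome 18 to -5.22 on chromosome 19. The CAMTA1 difference was also below 0 on 22 of 22, from -5.20 to -0.037, so the shared sign was not particular to YAP5SA. YAP-TFE3 was below 0 on 20, EV on 17, TFE3 on 14 and TAZ-CAMTA1 on 1. For TFE3 the difference ranged from -3.69 to 2.87 and for EV from -6.87 to 2.05. The autosomes are not replicates, and these ranges describe the spread over the genome only.

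The relation was also seen from the side of YAP5SA. In the 1608 sites that lacked YAP5SA alone, the TAZ4SA rank was 14.2 points below that of the sites of all 7 lists at similar rank in the other 5. In the other lists the differences ran from -5.08 points in TFE3 to -2.69 in TAZ-CAMTA1. The strata for these lists held the TAZ4SA rank, while those for TAZ4SA did not. Its part in this contrast was not tested. In the sites that lacked EV alone, TAZ4SA and YAP5SA were both slightly higher, by 3.36 and 3.90 points, while TAZ-CAMTA1 and TFE3 were lower at -12.6 and -11.3. Sites lacking TFE3 alone were 2.21 points higher in TAZ4SA and lower in each of the other 5 lists, most of all in YAP-TFE3 at -17.2. The 195 sites lacking TAZ-CAMTA1 alone stood 22.8 points higher in TAZ4SA and 8.23 points higher in YAP5SA. In 4 of the 5 classes where both TAZ4SA and YAP5SA have a peak, the differences in these lists had the same sign. These were the sites lacking EV, CAMTA1, TAZ-CAMTA1 or YAP-TFE3 alone, and the signs were opposite in sites lacking TFE3 alone. Such a count was not particular to this pair. EV and CAMTA1, and likewise EV and YAP-TFE3, had the same sign in every class where both have a peak. In sites lacking CAMTA1 alone every list was lower, from -8.15 points in TAZ4SA to -21.3 in TFE3, with YAP5SA at -11.0. The shared sign in that class is therefore not particular to TAZ4SA and YAP5SA. The classes lacking CAMTA1, TAZ-CAMTA1 or YAP-TFE3 alone held only 242, 195 and 260 sites.

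**Figure D4:**
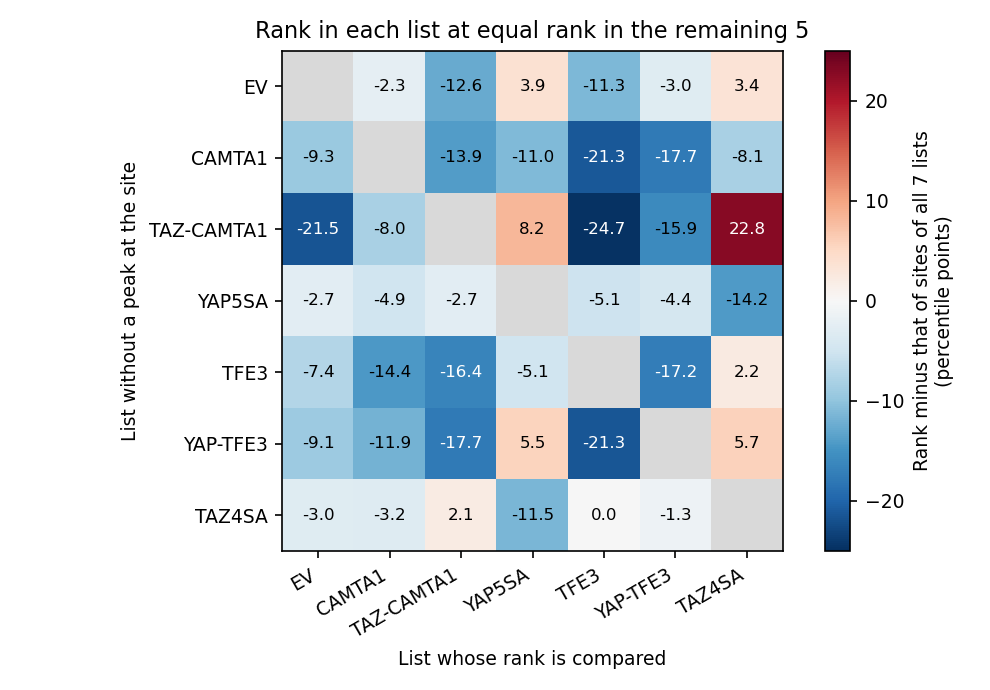
For sites with a peak in every list but the one named on the vertical axis, the rank in the list on the horizontal axis minus that of sites of all 7 lists in the same strata of mean rank over the remaining 5 lists (percentile points, blue lower, red higher; grey, not defined). The row for TAZ4SA has its lowest value under YAP5SA, at -11.5, and the row for YAP5SA under TAZ4SA, at -14.2.

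The sites of all 7 lists, which are not members, also had their largest difference in YAP5SA. Within strata of mean rank over 5 lists they were divided into 3 equal groups by TAZ4SA rank. The group with the lowest TAZ4SA rank had a YAP5SA rank of 78.7 and the group with the highest one of 87.2, a difference of -8.55 points. The corresponding differences were -2.48 points for CAMTA1, -0.73 for YAP-TFE3, -0.67 for EV and -0.64 for TFE3. TAZ-CAMTA1 went the other way, with 85.7 in the lowest group and 83.4 in the highest, a difference of 2.27 points. Here too the strata for each other list held the YAP5SA rank, while those for YAP5SA did not. What this adds to the contrast was not tested. All these values come from the same 7 lists as the rule, so they describe the lists and are not independent of each other. Whether read depth or the number of libraries moved TAZ4SA and YAP5SA together was not tested.

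Individual members departed widely from the median. Among the 11567 members with a mean rank of at least 50 in the 5 other lists, YAP5SA lay below that mean in 7613 (65.8%). The member with the lowest YAP5SA rank for its strength lay at chr14:77652930-77654229. Its areas were 1335 in EV, 1531 in CAMTA1, 2223 in TAZ-CAMTA1, 1431 in TFE3 and 3551 in YAP-TFE3, but 23.4 in YAP5SA, close to the lowest area called. Its YAP5SA rank was 4.69 against a mean of 86.9 in the other 5. At chr18:43083685-43084723 the YAP5SA area was 20.8, where EV had 799, CAMTA1 1269, TAZ-CAMTA1 2578, TFE3 814 and YAP-TFE3 1052. Both sites were within a small margin of having no YAP5SA peak either.

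The next 3 by this measure lay at chr4:189320691-189322526, chr9:112574662-112575612 and chr9:80149231-80149926, with YAP5SA areas of 21.4, 25.7 and 20.7 and ranks of 78.5, 82.6 and 75.5 on average in the other 5 lists. In the opposite direction, the member at chr20:56130599-56131613 had an area of 1216 in YAP5SA and of 31.1 in EV, 269 in CAMTA1, 394 in TAZ-CAMTA1, 95 in TFE3 and 326 in YAP-TFE3. Its YAP5SA rank of 85.7 was 35.7 points above the mean of the others, and it had no TAZ4SA peak within 15456 bp. The member at chr12:105886320-105887385 had an area of 2142 in YAP5SA, of 108 in EV, 515 in CAMTA1, 660 in TAZ-CAMTA1, 189 in TFE3 and 43.6 in YAP-TFE3. Its nearest TAZ4SA peak was 6163 bp away. The other 3 of the 5 highest lay at chr2:112231695-112232659, chr5:75809043-75810853 and chr5:10518285-10519539, with YAP5SA areas of 1534, 3207 and 2107 and a YAP5SA rank 33.3 to 34.3 points above the mean of the others. Their nearest TAZ4SA peaks were 300, 7043 and 351 bp away. All members lack a TAZ4SA peak by the rule, so its absence at sites picked for a high YAP5SA rank is no separate result.

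The members were spread over all autosomes and chromosome X. The share of 6-list sites without a TAZ4SA peak ran from 16.5% (15.3 to 17.6%) on chromosome 9 to 27.0% (24.1 to 30.1%) on chromosome 21. Since weak sites more often lack TAZ4SA, each share was set beside the one that the strength of the chromosome's own sites would give. Chromosome 22 had 26.6% beside 18.6%, chromosome 19 had 22.8% beside 16.5% and chromosome 17 had 23.6% beside 17.2%, ratios of 1.43, 1.39 and 1.37. Chromosome 13 had 17.6% beside 25.7%, chromosome 5 had 17.6% beside 23.5% and chromosome 9 had 16.5% beside 20.9%, ratios of 0.685, 0.748 and 0.788. Chromosomes 21 and 10 were also above, with ratios of 1.26 and 1.23, and gene density was not analysed here. The sites lacking TFE3 alone had another order, with 7.80% on chromosome 13 and 5.90% on chromosome 5, but 0.935% on chromosome 22 and 0.995% on chromosome 19. Sites lacking YAP5SA alone did not follow the order of TAZ4SA either. They made up 3.21% on chromosome 13 and 3.28% on chromosome 5, but 2.13% on chromosome 22 and 1.46% on chromosome 19. The shares lacking TFE3 or YAP5SA were not set beside strength. Chromosome 5 held 11.6% of all TAZ4SA peaks and 11.1% of all EV peaks, more than any other chromosome in both, and what part the density of peaks has in these shares was not tested.

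**Figure D5:**
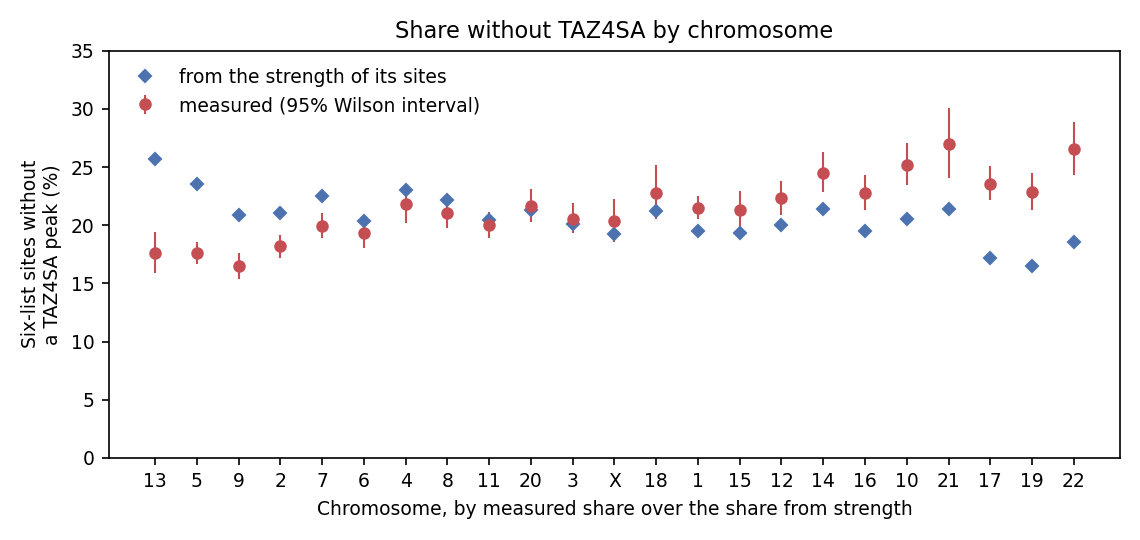
Share of 6-list sites without a TAZ4SA peak on each chromosome (vertical axis, %; red, with Wilson 95% intervals) and the share given by the strength of that chromosome's sites (blue), ordered along the horizontal axis by their ratio. Chromosomes 13, 5 and 9 lie below the blue marks, and chromosomes 17, 19 and 22 above them.

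In windows of 5 Mb with at least 30 6-list sites, of which there were 526, the share had a median of 20.5% (interquartile range 16.6 to 24.5%). The interval lay above the overall 20.8% in 51 windows and below it in 57. How many windows counting error or site strength alone would place there was not computed. The highest share was 39.5% (29.2 to 50.7%), 30 of 76 sites, at chr13:25000001-30000000, on a chromosome with a low share as a whole. It was followed by 37.1% at chr16:45000001-50000000 and 35.3% at chr21:15000001-20000000. These 3 windows held 93, 213 and 49 TAZ4SA peaks, for 76, 132 and 34 6-list sites. The lowest shares were 3.95% at chr4:45000001-50000000, 4.17% at chr8:85000001-90000000 and 4.92% at chr9:65000001-70000000. They held 233, 142 and 508 TAZ4SA peaks for 76, 48 and 122 6-list sites. The windows were picked by the share without a TAZ4SA peak, so these values describe them and are no separate result.

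Members were slightly more often neighbours of members along the chromosomes. After a member, the next 6-list site was a member in 23.3% of cases, and after a site of all 7 lists in 20.1%, where 20.8% of all 6-list sites were members. Of the members, 9387 (59.4%) stood alone between sites of all 7 lists, and the median distance to the nearest such site was 5634 bp. Of 12131 runs, 55 held 5 or more consecutive members. How many lone members and long runs an independent placement of members would give was not computed. The longest runs had 7 and lay at chr10:71238978-71428771, chr12:113486561-113528995, chr17:9796548-9918041, chr17:55749316-55889067 and chr18:77307388-77371769. Genes and sequences at these sites were not analysed here, since the genome and annotation at hand are of another build than the lists.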

How the data were processed

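The data were 7 peak lists from ATAC-seq of 20 SW872 libraries, 1 list per construct. According to the study's methods, the authors trimmed reads with NGmerge, aligned them to hg19 with BWA-MEM and called peaks with Genrich in its ATAC-seq mode, removing PCR duplicates, blacklisted regions and the mitochondrial genome. The submitters' processing notes instead name Bowtie 0.12.2 and a mouse build; the chromosome names are human. The methods describe calling per replicate, and how libraries were combined is not given in the sources used here. The signal column deposited by the authors gives, for each peak, Genrich's area under its statistic. The summit −log10 p was deposited as well. Score and −log10 q were not used.

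Peaks were merged into sites in Python 3.11.15 and pandas 2.3.3, adjoining peaks staying apart, and the number of sites differed from that of bedtools 2.31.1 by 0. The merging and the comparison in strata were tested on simulated data. Ranks are percentiles within a list. Differences in strata are differences of medians per stratum with at least 5 sites on each side, weighted by the number of members. Named sites were the 10 members with the largest smallest-of-6 area, the 5 widest, and, with a mean rank of at least 50 in the other 5 lists, the 5 lowest and 5 highest in YAP5SA, together with the 3 windows of 5 Mb with the highest and the 3 with the lowest share. The 5 members nearest to a TAZ4SA peak and the longest runs were added after the values were seen. The members and the measures were chosen with earlier results of these data known. Depth per library is unknown. Positions count from 1.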

Additional observations from a re-analysis of the deposited data

How the results depend on the processing

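Of 62 values recomputed for 7 results, 33 moved, 29 did not and 0 reversed. The band for not having moved was the counting error, 1.5 times for counts, and for the YAP5SA difference in strata 1 SD over the autosomes (-14.6 to -8.37), a wide band. The number of sites without a TAZ4SA peak moved to 10250 with lists of equal length (152702 peaks) kept by summit −log10 p, and to 35165 for cores. Their share of 6-list sites was 17.2% for peaks whose summit −log10 p was 4 or more, 15.4 and 15.8% for equal lengths, kept by summit p and by area respectively, 19.8% for windows reaching 250 bp from the summits, 30.6% for cores and 17.7% with no TAZ4SA peak within 500 bp. In the same order, where it applies, the median width was 617, 593, 593, 99 (cores) and 560 bp, and the median distance to a TAZ4SA peak 4380, 3828, 3806, 4124 (windows), 513 (cores) and 4997 bp.

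The YAP5SA rank minus the mean of the 5 others was -10.4 and -10.5 for equal lengths (by summit p, then area), -5.91 for cores, -2.97 when ranked among 6-list sites, -4.92 with no TAZ4SA peak within 500 bp and -3.39 with summed areas. Under alternatives chosen after seeing the data it was -3.27 with 1 peak per list and -3.88 under 1000 bp. The share with YAP5SA lowest was 29.3% for summits of 4 or more, 44.3 and 44.2% for equal lengths, 30.4% for cores, 27.2% ranked among 6-list sites and 29.2% with no TAZ4SA peak within 500 bp. The YAP5SA difference in strata, -11.5, whose alternatives were also chosen after seeing the data, ranged from -13.3 for cores to -10.4 when ranked among 6-list sites and was -11.0 with 50 strata. Cores are narrower by construction and shorter lists lose weak peaks by construction; the cause of the other changes was not tested. No paired analysis was possible because no value of a single library is in the peak lists, so no library could be left out either. Unknown read depth limits every statement on an absent peak.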
